A study of Homo sapiens with 6 samples.

Results

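The 10 genes of the MYC, MAX and MXD network were MYC, MYCN and MYCL, their partner MAX, the repressors MXD1, MXI1, MNT, MXD4 and MXD3, and the related factor MLX. They were taken by name, and 10 of 10 were among the 14538 genes listed. The cells were HEK293T, a line derived from human embryonic kidney, in which INTS8 carried a homozygous miniAID tag. That tag is a degron, so the plant hormone auxin leads to degradation of the tagged protein, and INTS8 is part of Integrator, an RNA-cleaving complex that stops RNA polymerase II early on many genes. Total RNA depleted of ribosomal RNA was sequenced from 3 libraries given 100 µM auxin for 48 h and from 3 libraries left untreated. Both groups carried the tag, and auxin-treated cells without it were not analysed here, so an effect of auxin itself cannot be told apart from loss of INTS8.

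Every value came from 1 table of the authors' own comparison, which gives a mean level over both groups, a fold change and a p-value per gene. Its column names give RNA-seq of INTS8 at 48 h and were followed, although the name of its sheet mentions INTS1 and TT-seq, a method that labels new RNA, and this difference could not be settled from the table. Values per library were not analysed here, so the spread between libraries and the depth of each library are unknown here, and errors are standard errors derived from the deposited p-values. The header does not say which group is on top. Auxin over no auxin, the usual order, was assumed, and no value in the table tests this; under the other reading each rise below is a fall and each fall a rise. The level of each group was worked out from the mean and the fold together, in the table's normalized units. For the 12182 genes with a mean level above 100, the table's own log2 level per kb matched the level derived for the group on top to within 0.0165 on the log2 scale. Separate cultures are not stated for the libraries of a group, so p-values here measure the spread between these libraries, which may be technical. Auxin acts on the INTS8 protein, so INTS8 RNA does not check the treatment. Of 10 genes written as markers of the HEK293 line, 9 were listed, with summed derived levels of 59883 with auxin and 58295 without, but 5 of the 9 were higher and 3 lower. IGF2BP1 held the largest part of that sum and had derived levels of 26674 with auxin and 34688 without, while NEFM was at 10.8-fold, NEFL at 2.83-fold and KRT8 at 1.77-fold per the authors' deposited table. Of 10 mature kidney markers only LRP2 was listed, with derived levels of 1287 with auxin and 2675 without (0.481-fold, adjusted p 1.22e-60 per the authors' deposited table), and of 10 blood and liver markers 3 were, HBA1, CD68 and HBB, with summed derived levels of 1283 with auxin and 145 without. CD68 made up most of that sum, at 1124 with auxin and 112 without. HBA1 was at 158 with auxin and 31.6 without. HBB had a mean level of 1 and an adjusted p of 0.471 per the authors' deposited table. The part of all these markers in the results below was not tested.

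MYC proteins are transcription factors of growth and division that bind DNA only as dimers with MAX. The dimer recognizes a short palindrome called the E-box and recruits coactivators. MXD proteins, MXI1 and MNT compete for MAX, bind the same E-box and bring in the SIN3 corepressor with its histone deacetylases, so that the balance of partners sets whether a target is driven or held down. MLX takes the place of MAX in a parallel branch, in which the nutrient sensors MondoA (MLXIP) and ChREBP (MLXIPL) are its partners. In kidney and many other tissues MYC is high in proliferating cells, and MXD1 is known as a marker of cells that leave the cycle and differentiate.

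Promoters of the network genes are shown first because several of them hold the E-box that the proteins themselves bind. Windows of 300 bases, from 250 before to 50 after a transcription start, were taken from RefSeq on GRCh38.p14, the assembly that hg38 names, and 9 of the 10 genes, all but MYC, had a window there. The canonical E-box CACGTG, which reads the same on both strands, was found in the windows of MNT, MXD4 and MLX, 3 of 9 genes, and in 8.77% of the 27305 genes with a window. The variant CATGTG, or CACATG on the other strand, was found in the MYCL window alone, 1 of 9 genes, and in 13.4% of all genes with a window. The 2 motifs did not overlap. Capitals below mark these E-boxes, and the MXD1 window is given because MXD1 changed most, although neither motif was found in it. Counted from the start, the E-box began at base -193 in MNT, -238 in MXD4 and -50 in MLX, and the MYCL variant began at base 28. A match is a string of letters and does not show that a protein was bound.
MXD1 promoter, chr2:69914859-69915158, plus strand: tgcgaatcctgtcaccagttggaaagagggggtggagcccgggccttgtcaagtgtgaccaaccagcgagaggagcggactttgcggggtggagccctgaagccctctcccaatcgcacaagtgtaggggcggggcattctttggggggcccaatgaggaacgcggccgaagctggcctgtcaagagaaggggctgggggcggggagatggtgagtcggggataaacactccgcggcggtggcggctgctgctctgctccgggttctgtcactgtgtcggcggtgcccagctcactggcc
MNT promoter, chr17:2401011-2401310, minus strand: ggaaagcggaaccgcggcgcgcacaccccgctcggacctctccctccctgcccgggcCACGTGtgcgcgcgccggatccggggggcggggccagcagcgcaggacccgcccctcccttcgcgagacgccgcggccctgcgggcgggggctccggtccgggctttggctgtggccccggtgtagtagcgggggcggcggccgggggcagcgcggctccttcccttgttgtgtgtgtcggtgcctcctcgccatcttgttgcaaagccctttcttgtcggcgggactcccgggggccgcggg
MXD4 promoter, chr4:2262060-2262359, minus strand: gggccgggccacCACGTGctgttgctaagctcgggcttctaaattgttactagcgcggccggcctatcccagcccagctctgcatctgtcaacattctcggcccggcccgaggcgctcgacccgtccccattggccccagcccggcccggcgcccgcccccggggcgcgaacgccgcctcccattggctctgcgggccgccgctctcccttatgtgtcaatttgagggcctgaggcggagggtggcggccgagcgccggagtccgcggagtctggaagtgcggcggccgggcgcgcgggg
MLX promoter, chr17:42566850-42567149, plus strand: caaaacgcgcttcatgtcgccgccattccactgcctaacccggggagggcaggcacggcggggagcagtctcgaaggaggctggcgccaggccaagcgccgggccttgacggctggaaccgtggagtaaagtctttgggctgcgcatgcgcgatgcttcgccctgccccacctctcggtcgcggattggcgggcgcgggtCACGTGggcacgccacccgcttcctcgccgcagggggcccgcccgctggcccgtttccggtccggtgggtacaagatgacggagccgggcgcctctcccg
MYCL promoter, chr1:39901868-39902167, minus strand: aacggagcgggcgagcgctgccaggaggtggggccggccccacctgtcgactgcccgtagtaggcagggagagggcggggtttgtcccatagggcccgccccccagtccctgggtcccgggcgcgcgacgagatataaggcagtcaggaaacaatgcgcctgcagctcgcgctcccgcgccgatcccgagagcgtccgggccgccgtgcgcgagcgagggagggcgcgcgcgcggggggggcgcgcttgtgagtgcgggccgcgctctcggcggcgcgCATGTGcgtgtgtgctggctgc
With the windows set beside the changes given below, MNT rose, MXD4 did not pass the test and MLX fell, so the 3 genes with the canonical E-box showed no common direction.

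Auxin treatment was followed by a large rise of a single repressor, MXD1, and by smaller changes of the rest of the network. At an adjusted p of 0.05 per the authors' deposited table, 4 of the 10 genes were higher (MXD1, MYCL, MXI1 and MNT), 3 were lower (MYC, MXD3 and MLX) and 3 did not pass (MYCN, MAX and MXD4). Over all listed genes 56.7% passed, with 27.8% higher and 28.9% lower. Among the 12195 genes at a mean level of at least 100, 61.7% passed, with 28.5% higher and 33.2% lower. The 7 of 10 passing genes were thus near the background, and passing the test did not set the network apart. In bulk RNA, fewer cells of a kind and less RNA per cell cannot be told apart. At a change of at least 2-fold only MXD1 was called, where 7.88% of all genes were higher and 1.36% lower.

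**Figure D1:**
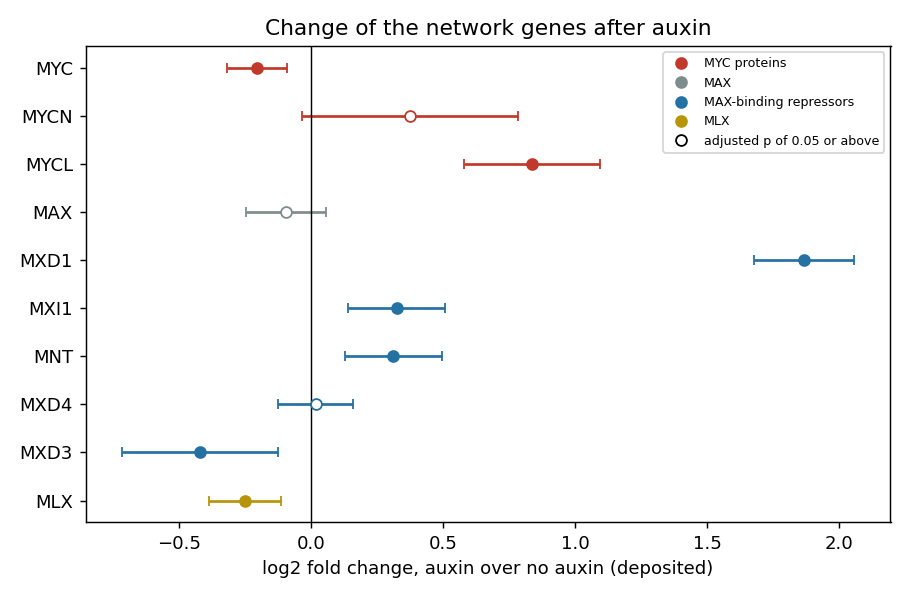
Deposited log2 fold change of each of the 10 network genes (auxin over no auxin, horizontal axis) with 95% intervals from derived standard errors, coloured by role. MXD1 stands apart at 1.87, MYC lies just left of the zero line at -0.21, and open circles mark the 3 genes that did not pass an adjusted p of 0.05.

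MYC had by far the most RNA of the 3 MYC genes and fell slightly. MYC (ENSG00000136997, chromosome 8 from 127735659 to 127741434, plus strand, hg38) had a mean level of 6518 per the authors' deposited table, and its derived levels were 6055 with auxin and 6981 without. Its fold change per the authors' deposited table was 0.867, with a log2 fold change of -0.21 ± 0.06 (derived SE) and an adjusted p of 9.92e-04. The 95% interval ran from -0.32 to -0.09 on the log2 scale, and 62.1% of all listed genes had a larger absolute log2 fold change. The fall of MYC was therefore past the test and small.

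MYCL, the relative first found amplified in lung cancer, moved the other way. MYCL (ENSG00000116990, chromosome 1 from 39899612 to 39901919, minus strand) had derived levels of 281 with auxin and 157 without, around a mean level of 219 per the authors' deposited table. It was 1.79-fold higher per the authors' deposited table, with a log2 fold change of 0.84 ± 0.13 (derived SE, 95% interval 0.58 to 1.10) and an adjusted p of 1.08e-09. An antisense gene, AL033527.2, shares exon sequence with MYCL in GENCODE 29 on the other strand, though not within the bounds the table gives for MYCL. Its fold change per the authors' deposited table was 16.2 at a mean level of 39, it was picked out with its value in view, and whether its reads add to those of MYCL was not tested.

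MYCN, the member known from neuroblastoma, was scarce. MYCN (ENSG00000134323, chromosome 2 from 15940550 to 15947007, plus strand) had derived levels of 81.3 with auxin and 62.7 without. Its fold change of 1.30 per the authors' deposited table did not pass (log2 fold change 0.37 ± 0.21 derived SE, adjusted p 0.116), and the 95% interval from -0.04 to 0.78 holds both no change and a rise as large as that of MXI1 or MNT. At a mean level of 72 the error was the widest of the 10 genes, so a change of this size was not detectable.

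MAX, the shared partner of the MYC and MXD proteins, showed no called change. MAX (ENSG00000125952, chromosome 14 from 65075124 to 65102695, minus strand) had derived levels of 3766 with auxin and 4020 without. Its fold change was 0.937 per the authors' deposited table (log2 fold change -0.09 ± 0.08 derived SE, adjusted p 0.299). The 95% interval on the log2 scale was -0.24 to 0.06. A change within those bounds in either direction lay inside the error.

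The repressors that pair with MAX went in different directions, 3 higher, 1 lower and 1 not past the test. MXD1 (ENSG00000059728, chromosome 2 from 69915041 to 69942945, plus strand) had derived levels of 2789 with auxin and 765 without. It was 3.65-fold higher per the authors' deposited table, with a log2 fold change of 1.87 ± 0.10 (derived SE, 95% interval 1.68 to 2.06) and an adjusted p of 4.04e-82. In absolute log2 fold change it ranked 503 of 14538, and 3.45% of all genes had a larger one. No other gene of GENCODE 29 overlapped the bounds the table gives for MXD1 or lay within 5 kb of them. GENCODE 29 itself starts MXD1 further upstream, at base 69897688. The part of that stretch more than 5 kb before the table's bounds was not searched, so an overlap there is not known.

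MXI1 and MNT rose by less than MXD1 and by nearly the same amount as each other. MXI1, also called MXD2 (ENSG00000119950, chromosome 10 from 110207605 to 110287365, plus strand), had derived levels of 2093 with auxin and 1673 without, at 1.25-fold per the authors' deposited table (log2 fold change 0.32 ± 0.09 derived SE, adjusted p 1.22e-03). MNT, a larger and broadly expressed repressor (ENSG00000070444, chromosome 17 from 2384073 to 2401060, minus strand), had derived levels of 2067 with auxin and 1667 without, at 1.24-fold per the authors' deposited table (log2 fold change 0.31 ± 0.09 derived SE, adjusted p 2.10e-03). The 95% intervals of both, 0.14 to 0.51 for MXI1 and 0.13 to 0.49 for MNT, lay wholly below that of MXD1. MXD1, MXI1 and MNT came from the same libraries, and no test of the difference between genes was made.

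MXD4 and MXD3 did not rise. MXD4 (ENSG00000123933, chromosome 4 from 2247432 to 2262109, minus strand) had the highest mean level of the repressors, 5292 per the authors' deposited table, and its derived levels were 5324 with auxin and 5260 without. Its fold change per the authors' deposited table was 1.01 (log2 fold change 0.02 ± 0.07 derived SE, adjusted p 0.857), with a 95% interval of -0.13 to 0.16. MXD3, known from proliferating cells in S phase (ENSG00000213347, chromosome 5 from 177307205 to 177312309, minus strand), had derived levels of 327 with auxin and 437 without, at 0.748-fold per the authors' deposited table (log2 fold change -0.42 ± 0.15 derived SE, adjusted p 0.0112). MXD3 thus fell, and among the called genes it had the widest error, with a 95% interval of -0.72 to -0.12.

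MLX, the partner of MondoA and ChREBP, fell. MLX (ENSG00000108788, chromosome 17 from 42567068 to 42573239, plus strand) had derived levels of 2402 with auxin and 2856 without, at 0.841-fold per the authors' deposited table (log2 fold change -0.25 ± 0.07 derived SE, adjusted p 9.29e-04). PSMC3IP overlaps MLX on the other strand, exons included, and was at 1.22-fold per the authors' deposited table, picked out with its value in view. Exons of MYCN, MAX, MXI1 and MNT also overlap antisense genes in GENCODE 29. The library kit was directional, but no source used here gives whether counting used strand, so the values of these 5 genes are uncertain to that extent. Outside the bounds the table gives for it, MXD3 shares exon sequence in GENCODE 29 with PRELID1 on the other strand and with RAB24 on its own strand, and their mean levels were 11115 and 1470 against 382 for MXD3 per the authors' deposited table, so MXD3 is uncertain as well.

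**Figure D2:**
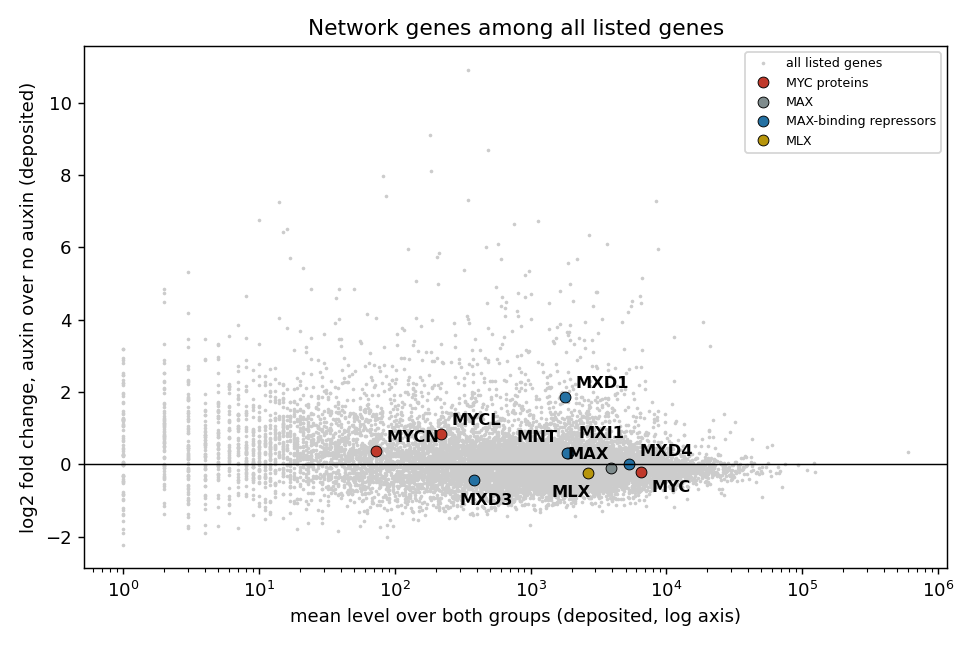
Deposited log2 fold change (auxin over no auxin) against deposited mean level on a log axis for all listed genes with a mean level above 0 (grey; 165 genes at a rounded mean of 0 are not drawn), with the 10 network genes coloured by role. MXD1 lies above the bulk of genes of its level, while MYC, MAX, MXD4, MLX, MXI1 and MNT lie within the dense band.

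Levels of different genes were compared per length, as the derived level over the union exon length in GENCODE 29, in kb. With auxin the order was MYC at 2018 per kb, MAX at 850, MXD4 at 754, MLX at 564, MXI1 at 454, MXD1 at 439, MNT at 237, MXD3 at 63.4, MYCL at 55.5 and MYCN at 31.2. Without auxin it was MYC at 2326 per kb, MAX at 907, MXD4 at 745, MLX at 671, MXI1 at 363, MNT at 191, MXD1 at 120, MXD3 at 84.8, MYCL at 31.0 and MYCN at 24.1. MXD1 and MNT thus changed places, and the other 8 genes kept theirs. MXD1 was next to MXI1 with auxin, whereas without auxin it had a level nearer to that of MXD3. No spread over libraries is known, so neighbours as close as MXI1 and MXD1 with auxin cannot be ordered beyond error. With the length column of the authors' deposited table in place of union exons, MXD4 stood above MAX in both groups, and MXD3 above MXD1 without auxin. For MXD3 and MYCL the deposited lengths were 1483 and 1944 bases, against 5154 and 5063 bases of union exon. With the deposited lengths, derived levels with auxin were 220 per kb for MXD3 and 144 per kb for MYCL. The authors' own level per kb matched the derived level over the deposited lengths.

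**Figure D3:**
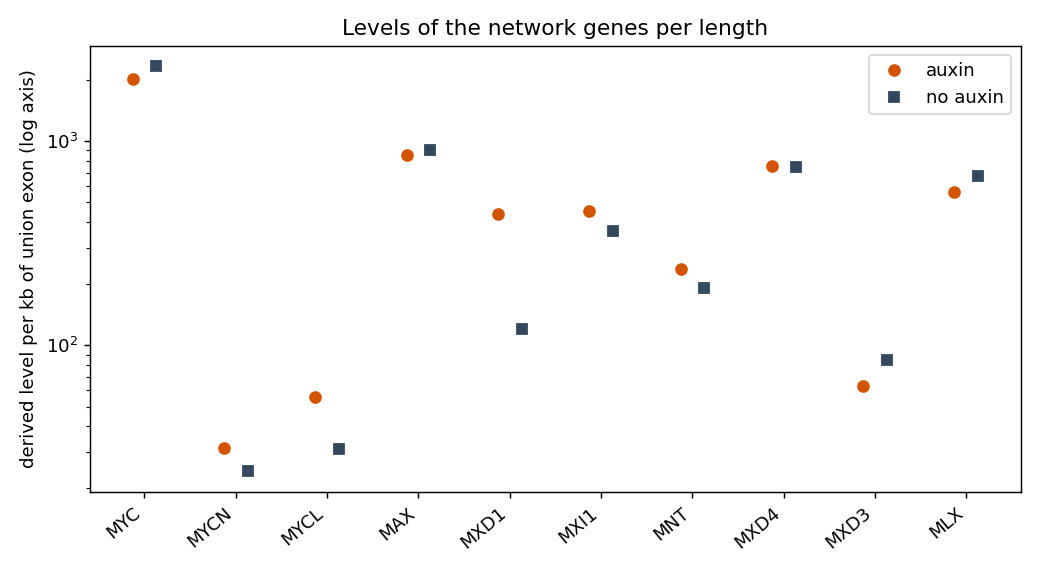
Derived level per kb of union exon (log axis) of each network gene with auxin (circles) and without auxin (squares); single values per group, with no error because values per library were not analysed here. MYC is highest in both groups at 2018 and 2326 per kb, and the gap between the groups is widest for MXD1, at 439 against 120.

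Summed by role, repressor RNA rose relative to MYC RNA. The 5 repressors together had 1948 per kb of union exon with auxin and 1504 without, a ratio of 1.29, and MXD1 supplied 71.9% of that difference. The 3 MYC genes together had 2104 per kb with auxin and 2381 without, a ratio of 0.884, of which MYC itself made up 95.9% with auxin and 97.7% without. The repressors over the MYC genes were at 0.926 with auxin and 0.632 without. Single genes gave a larger shift, since MXD1 over MYC was 0.218 with auxin and 0.0518 without, 4.21-fold higher. MYC over MAX was 2.37 with auxin and 2.56 without. The sums depend on the gene lengths used: with the table's lengths the repressors over the MYC genes were at 1.21 with auxin and 0.911 without, so whether repressor RNA exceeds MYC RNA is not settled, while the ratio was higher with auxin under each of the 3 lengths. These sums are of RNA, describe the genes chosen, and were not tested. They say nothing of protein, and MYC protein is short-lived and controlled largely after transcription.

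**Figure D4:**
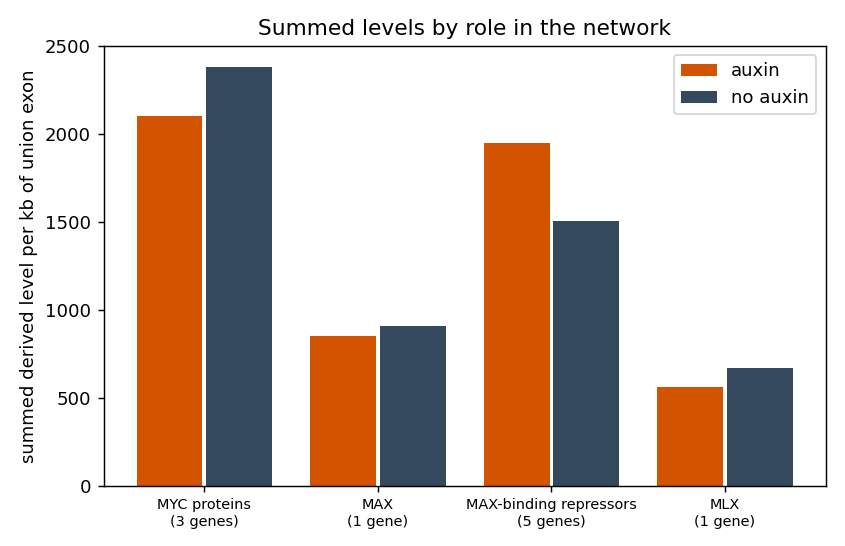
Summed derived level per kb of union exon for each role of the network, with auxin (left bar of each pair) and without auxin (right bar). The repressor bar is taller with auxin (1948 against 1504), and the bars of the MYC genes (2104 against 2381), MAX and MLX are shorter.

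None of the 8 listed further partners of MAX and MLX and other E-box factors reached a 1.5-fold change. The share of all genes at that limit was not worked out, so this count has no background beside it. Of these, 2 were higher (25%, beside 28.5% of all genes at a mean level of at least 100) and 4 lower (50%, beside 33.2%), with a median log2 fold change of -0.08, against 0.00 over all genes and -0.03 over genes at a mean level of at least 100. Both nutrient sensors that pair with MLX fell along with it. Per the authors' deposited table, MLXIPL (ChREBP) was at 0.686-fold (adjusted p 1.07e-08) and MLXIP (MondoA) at 0.875-fold (adjusted p 4.39e-03). MGA, a MAX-binding repressor that also carries a T-box, was at 1.03-fold per the authors' deposited table and did not pass (adjusted p 0.719). The E-box factors USF1 and USF2, which dimerize with each other, parted, at 1.34-fold (adjusted p 2.03e-10) and 0.843-fold (adjusted p 8.51e-04) per the authors' deposited table. Of the lysosome and melanocyte factors, TFEB was at 0.741-fold (adjusted p 4.11e-04), MITF at 1.17-fold (adjusted p 0.0274) and TFE3 at 1.03-fold (adjusted p 0.622) per the authors' deposited table.

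Corepressors that MXD proteins recruit split between rises and falls. Of 22 listed genes of the SIN3 and NCOR complexes, 8 were higher (36.4%, beside 28.5% of all genes at a mean level of at least 100) and 10 lower (45.5%, beside 33.2%), with a median log2 fold change of -0.08. The largest changes per the authors' deposited table were ING1, a reader of histone methylation, at 2.03-fold, BRMS1, a subunit of SIN3 complexes, at 1.95-fold and TBL1X, an exchange factor of the NCOR complex, at 0.519-fold. The scaffolds SIN3A and SIN3B, to which MXD proteins bind directly, were at 0.876 and 0.868-fold per the authors' deposited table and passed, as did the deacetylase HDAC1 at 0.834-fold, while HDAC2 at 1.03-fold did not; these 4 were picked out with their values in view. The scaffolds thus fell slightly while MXD1 rose.

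Coactivators of MYC were more often lower than higher. Of 15 listed, 8 fell and 2 rose, with a median log2 fold change of -0.13, and 53.3% of the list was lower beside 33.2% of all genes at a mean level of at least 100. The share of the list that was higher, 13.3%, stood beside 28.5% of those genes. EP400, a chromatin remodeller, was at 0.692-fold and TRRAP, the scaffold that MYC binds in acetyltransferase complexes, at 0.767-fold per the authors' deposited table. The 2 that rose were ACTL6A, an actin-like remodeller subunit, at 1.29-fold and the acetyltransferase EP300 at 1.15-fold per the authors' deposited table, the second picked out with its value in view. ZBTB17 (MIZ1), through which MYC represses genes, was at 0.924-fold per the authors' deposited table and did not pass. It too was picked out with its value in view. ZBTB17 is nonetheless counted among the 15 genes and in the median.

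Enzymes that control MYC protein stability numbered 20 listed genes, of which 9 fell (45.0%) and 4 rose (20%), with a median log2 fold change of -0.13. The shares over all genes at a mean level of at least 100 were 33.2% lower and 28.5% higher. The ubiquitin ligase STUB1 was at 0.535-fold, the deubiquitinase USP22 at 0.578-fold and the kinase PIM2 at 1.997-fold per the authors' deposited table. FBXW7, the ligase that marks phosphorylated MYC for destruction, rose to 1.36-fold, and its counterpart USP28, which removes that ubiquitin, fell to 0.609-fold per the authors' deposited table. The ligase SKP2 was at 0.610-fold, the mitotic kinase AURKA at 1.16-fold and CIP2A, a protein that stabilizes MYC, at 1.22-fold per the authors' deposited table. FBXW7, USP28, SKP2, AURKA and CIP2A were picked out with their values in view.

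Factors that act on MYC transcription or mRNA had 9 of 17 listed genes lower (52.9%) and 2 higher (11.8%), with a median log2 fold change of -0.21. Of all genes at a mean level of at least 100, 33.2% were lower and 28.5% higher. IGF2BP2, from a family that protects MYC mRNA, was at 0.709-fold and the cell cycle factor E2F1 at 0.720-fold per the authors' deposited table. Its relatives IGF2BP1 and IGF2BP3 fell as well, to 0.769 and 0.749-fold per the authors' deposited table, picked out with their values in view. FUBP1, which binds single-stranded DNA upstream of MYC, rose to 1.52-fold, and TIAL1, an RNA-binding protein picked out with its value in view, to 1.20-fold per the authors' deposited table. All 3 IGF2BP genes were thus lower, as was MYC.

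Genes that MYC is known to activate were more often lower than higher. Of 57 listed genes of growth, written after a standard set of MYC targets, 32 fell, 3 rose and 22 did not pass, and the median log2 fold change was -0.19. The share that fell, 56.1%, stood beside 33.2% of all genes at a mean level of at least 100, which all 57 reached. The share that rose, 5.26%, stood beside 28.5% of those genes. No test of the list was made. UNG, which removes uracil from DNA, was at 0.514-fold, the nucleoside transporter SLC29A2 at 0.536-fold and SORD, which oxidizes sorbitol, at 0.643-fold per the authors' deposited table. The 3 that rose were PLK1, a mitotic kinase, RABEPK and HK2, a hexokinase, at 1.21, 1.30 and 1.53-fold per the authors' deposited table, all 3 picked out with their values in view. Nucleolar genes of the list such as NPM1 and NOLC1 were at 0.825 and 0.817-fold, and PES1 was at 0.999-fold and did not pass, per the authors' deposited table, also picked out with their values in view.

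A second list of 28 targets studied as E-box genes, which shares CDK4 and NPM1 with the first, had 13 lower (46.4%, beside 33.2% of all genes at a mean level of at least 100) and 7 higher (25%, beside 28.5%), with a median log2 fold change of -0.13. CAD, the first enzyme of pyrimidine synthesis, was at 0.519-fold per the authors' deposited table, with derived levels of 9734 with auxin and 18764 without. In the other direction, SLC7A5, a transporter of large neutral amino acids, was at 2.24-fold per the authors' deposited table. SLC3A2, the other chain of the SLC7A5 transporter, was at 1.76-fold per the authors' deposited table. ODC1, LDHA and FBL, often used as readouts of MYC, were at 0.979, 0.994 and 0.961-fold per the authors' deposited table and did not pass. SLC3A2, ODC1, LDHA and FBL were picked out with their values in view. Targets of MYC therefore did not move as 1 block.

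Genes that MYC is reported to hold low, many of them through MIZ1, held the largest changes of any list. Of 18 listed, 13 rose (72.2%) and 5 fell (27.8%), and 8 of the 13 rose at least 2-fold, with a median log2 fold change of 0.67. Of all genes at a mean level of at least 100, 28.5% were higher and 33.2% lower, and 7.88% of all genes were at least 2-fold higher. The CDK inhibitors CDKN1C (p57) and CDKN2B (p15) were at 26.7 and 15.2-fold, and GADD45G, a stress gene, at 14.1-fold per the authors' deposited table. Derived levels were 1558 with auxin and 58.3 without for CDKN1C, 4731 with auxin and 311 without for CDKN2B, and 289.5 with auxin and 20.5 without for GADD45G. The 5 that fell, NDRG2, CDKN1B, ITGB1, KLF6 and AMBRA1, ranged from 0.846 to 0.903-fold per the authors' deposited table and were picked out with their values in view. KLF6 (adjusted p 0.0481) and AMBRA1 (adjusted p 0.0223) were near the threshold per the authors' deposited table, and 3 genes of the list were lower either at an adjusted p of 0.01 or after centring on the median of genes at a mean level of at least 100. This list, like the others, was written with earlier results of these data known, so the shares above are no test of it. Many genes of this list also respond to other pathways, and the part of the MYC network in these rises was not tested.

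Targets of MondoA and ChREBP, the branch that uses MLX split between rises and falls. Of 12 listed, 6 rose (50%, beside 28.5% of all genes at a mean level of at least 100) and 5 fell (41.7%, beside 33.2%), with a median log2 fold change of 0.23. ARRDC3, a relative of the target ARRDC4 and not itself an established one, was at 4.23-fold, GPD1, a glycerol phosphate dehydrogenase, at 2.71-fold and RGS16, a regulator of G protein signalling, at 2.61-fold per the authors' deposited table. ARRDC3 is nonetheless counted among the 12 genes, the 6 that rose and the median. HK2, also among the 6, is in the list of growth genes above as well. The best known MondoA targets TXNIP and ARRDC4 were at 1.32-fold, which passed, and 1.06-fold, which did not, per the authors' deposited table. The 5 that fell were the fatty acid synthesis genes SCD, ACACA, FASN and ACLY and the fructokinase KHK, at 0.620, 0.650, 0.653, 0.825 and 0.678-fold per the authors' deposited table. These 5, TXNIP and ARRDC4 were picked out with their values in view.

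**Figure D5:**
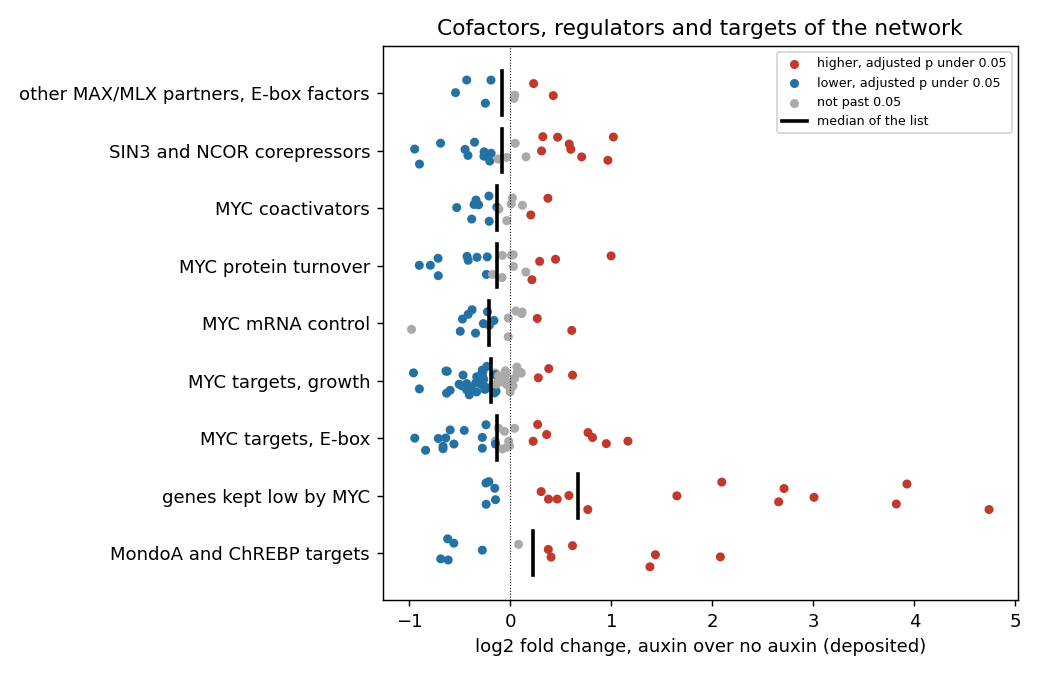
Deposited log2 fold change (auxin over no auxin) of each listed gene in 9 lists of cofactors, regulators and targets of the network, 1 point per gene, coloured by direction where the adjusted p was under 0.05; the black bar is the median of the list and vertical scatter has no meaning. The medians lie between -0.21 and 0.67, and only the genes that MYC is reported to hold low and the MondoA and ChREBP targets have medians above 0.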

How the data were processed

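RNA was measured in 6 libraries of INTS8-AID HEK293T cells. Per the submitters' processing notes, the authors' tools included STAR 2.7.3a as well as DESeq2, with hg38 and dm6 as builds; the role of dm6, the counting tool, the annotation and the scaling are not given in the sources used here. Per the file headers, the deposited table holds a mean level per gene, treated as a score since its values are whole but normalized, a ratio (fold change) of the groups, a log2 fold change, a p-value and an adjusted p-value, and a log2 level per kb. The authors' deposited adjusted p at 0.05 was used, as planned. Values per library were not analysed here, so the tests planned for such values were not run. The network members and the gene lists were chosen with earlier results of these data known. Named genes were the members, other MAX or MLX partners and, per list, the 3 that changed most in absolute log2 fold change past 0.05 at a mean level of at least 20; 1 gene so chosen is not reported here. Standard errors were derived from log2 fold change and p, assuming a two-sided Wald test. A run on simulated data returned the errors put in, but its p-values were made with the same formula. It therefore cannot check whether the deposited p-values come from such a test. Levels per group assume groups of equal size. Protein sequences were not used here, so the planned comparison of protein identity was not made. There are no read counts per library, hence no counting interval. GENCODE 29 held 14523 of the identifiers. Software was matplotlib 3.10.9, pandas 2.3.3, scipy 1.17.1 and numpy 2.4.6 under Python 3.11.15.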

Additional observations from a re-analysis of the deposited data

How the results depend on the processing

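The network counts of 4 higher and 3 lower rest on having no limit on fold. They became 2 and 0 at a change of at least 1.5-fold, 1 and 0 at 2-fold, and 1 and 0 in a Wald test against a fold of 1.5; no limit on fold and an unadjusted p under 0.05 gave 3 lower genes. In that Wald test MXD1 passed (adjusted p 9.83e-39) and MYC, at a log2 fold change of -0.21, did not (adjusted p 1). MYCL did not pass there either (adjusted p 0.442), and MXD3 was lost at an adjusted p of 0.01. That limit also left 1 higher gene among the further partners and E-box factors and 1 among the coactivators, against 2 each at 0.05. Over the 194 genes of the lists, 46 were higher and 93 lower, which became 23 and 22 at 1.5-fold, 13 and 0 at 2-fold (also 0 lower at an unadjusted p), and 17 and 8 in the Wald test. Of all genes at a mean level of at least 100, 28.5% were higher and 33.2% lower at an adjusted p of 0.05. At 2-fold, 7.88% of all genes were higher and 1.36% lower. Shares of all genes at 1.5-fold and in the Wald test were not worked out, so counts there, also those of the network, have no background beside them. Centring on genes at mean levels of 100 or more (median log2 fold change -0.03) reversed no network gene, and the mean level limits of 10 and 100, adjustment over every gene and protein-coding genes alone moved no network count by over 1.5 times. The place by level per length without auxin held for 6 of 10 genes with the table's lengths, a choice added after seeing the data. No paired analysis was possible because the table carries no values per library, so leaving out replicates, the replicate block and refits with other normalizations were not run. The median derived standard error was 0.0835 at mean levels of at least 100 and 0.301 at those from 10 up to 100, which limits MYCN most.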

Other observations

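Genes beside the network members also differed between the groups; all were picked out with their values in view, with no explanation offered. Next to MNT, SGSM2 was at 0.663-fold (adjusted p 7.16e-11) and METTL16 at 1.22-fold (adjusted p 1.88e-07) per the authors' deposited table. COASY, within 5 kb of MLX on the same strand, was at 0.742-fold (adjusted p 2.78e-09) per the authors' deposited table, beside 0.841-fold for MLX. RAB24 and PRELID1, which share exon sequence with MXD3 outside its bounds in the table, were at 1.05 and 0.948-fold per the authors' deposited table without passing, while MXD3 fell. SMNDC1, beside MXI1, was at 1.08-fold without passing (adjusted p 0.299) per the authors' deposited table.

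The table's log2 level per kb names no group in its header. It matched the level derived for the group on top of the fold change, whereas it differed from that derived for the other group by a median of 0.26 on the log2 scale. The column therefore holds 1 group's levels, and it does not say which group that is.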
